A study of Mus musculus with 26 samples.

Results

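Unc93a, Unc93b1 and Hydin were followed probe by probe in subcutaneous (inguinal) white fat of mice with and without the transcription factor ChREBP. They make up 3 of the 37074 gene names on the array and 7 of its 56605 probes. All probes that carried these names were taken. The genes were picked on measured values of the same arrays, because Unc93a and Hydin were dim in wild type (WT) and bright in total ChREBP knockout (KO). That contrast is therefore described here without a test for these genes. Unc93b1 was added as the paralog of Unc93a.

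Each of the 26 arrays held RNA from 1 mouse. Total ChREBP KO mice (n = 7) were Mlxipl-null and lacked the α and β isoforms of ChREBP, and WT mice of that line (n = 7) were their controls. ChREBPβ KO mice (n = 5) lacked the β-specific exon of Mlxipl after CRISPR/Cas9 editing of embryos, and WT mice of that line (n = 7) were their controls. The study gives male C57BL6/J mice for the arrays and does not state their age. Mice of all 4 groups went without food for 24 h, and were then refed for 18 h with 20% glucose in the drinking water. Which of the ChREBPβ founder lines was used is not given in the sources used here.

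The median spot signal was 59 to 108 per array against a median background of 15 to 23, with 0 saturated spots. Arrays correlated at 0.953 to 0.997 in pairs (Pearson's r). The brightest probe of the targeted gene Mlxipl (A_55_P2119957) stood at 21.6% of WT in total ChREBP KO (limma adjusted p = 2.14e-12) and at 34.4% of WT in ChREBPβ KO (adjusted p = 3.22e-06). Another Mlxipl probe (A_55_P2045158) was at 91.0% and 103% of WT, with adjusted p = 0.142 and 0.969. The remaining Mlxipl probe, A_55_P2728555, was at 53.4% and 62.4% of WT (limma adjusted p = 2.29e-06 and 0.0585). Lymphocyte marker levels differed between WT and KO mice of the total line and between the WT mice of the lines. In ChREBPβ KO 0 of the lymphocyte and muscle markers were called. A lymphocyte score, the mean log2 intensity of 15 markers, spanned 10.8 to 12.3 in WT and 8.26 to 11.1 in KO mice of the total line, and 7.71 to 8.59 in WT and 7.69 to 9.06 in KO mice of the ChREBPβ line. A score of 12 skeletal muscle markers spanned 6.68 to 12.5, 6.95 to 13.8, 6.78 to 12.7 and 7.23 to 13.3 in the same order. These ranges overlapped widely, but the median score was 6.90 in WT and 11.6 in KO mice of the total line. Of the 12 muscle markers 4 were called higher, 0 lower and 8 did not pass in total ChREBP KO, with a median log2 difference of 2.69. Dendritic cell markers (1 higher and 6 lower of 8 tested) and adipocyte markers (10 higher and 1 lower of 12) were also called in total ChREBP KO, and of 6 tested epithelial markers 0 were. Of all tested genes, 26.2% were called higher and 19.7% lower in this comparison. In bulk tissue, fewer cells of a type and less RNA per cell cannot be told apart.

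UNC93 proteins are multipass membrane proteins of the major facilitator type. UNC93B1 is the well-studied member: it sits in the endoplasmic reticulum and escorts the nucleic acid-sensing Toll-like receptors to endosomes, and its RNA is abundant in macrophages, B cells and dendritic cells. UNC93A has no settled function. HYDIN is a very large protein of the central pair apparatus of motile cilia, and its loss in mice causes hydrocephalus. Adipocytes carry no motile cilia. ChREBP binds paired E-boxes in its target genes and raises glycolytic and lipogenic genes when glucose is plentiful.

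The probes matter here because probes of the same gene gave different readings. Both Unc93a probes lie on the minus strand of chromosome 17 in mouse build mm9. A_52_P326664 (chr17:13301486-13301545) starts at base 2580 of the RefSeq transcript, and its last 30 bases hold the letters of a polyadenylation signal, shown in capitals. A_55_P2087391 (chr17:13315874-13315933) was designed on a separate complementary DNA and lies 14.4 kb upstream in the direction of transcription. Of the 4 Hydin probes, all on the plus strand of chromosome 8, A_51_P326043 (chr8:113133873-113133932) starts at base 15502 of the RefSeq transcript. A_66_P101360 (chr8:112878891-112878950) starts at base 1139 of the same transcript, 14363 bases nearer to its 5′ end. A_51_P444555 (chr8:112905557-112905616) and A_55_P2735395 (chr8:113011451-113011510) were designed on other complementary DNAs between them. Unc93b1 had 1 probe, A_52_P507382 (chr19:3949081-3949140, plus strand). Exon and untranslated region annotation of mm9 was not used here. The probe of Unc93a that changed is given by its last 30 bases, the Hydin probe that changed by its first 30 bases, and the Hydin probe at the other end of the transcript in full.
Unc93a A_52_P326664: ttttctaAATAAAcagtgaaattgttttat
Hydin A_51_P326043: taagttgattgtcacctgccctcagtgtga
Hydin A_66_P101360: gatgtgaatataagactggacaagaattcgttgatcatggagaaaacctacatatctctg

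Of the 7 probes, 4 passed the filter on dim spots, and these cover all 3 genes. Both Unc93a probes passed through the total ChREBP KO arrays alone. The Hydin probe A_51_P326043 and the Unc93b1 probe would also have passed without them.

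Unc93a was far brighter in total ChREBP KO than in any other group at its 3′ probe. The log2 normalized intensity of A_52_P326664 in WT of the total line was 4.86 at the lowest, 5.16 at the median and 5.72 at the highest array. In total ChREBP KO it was 8.95, 9.58 and 9.997. The groups did not overlap, and the lowest KO array lay 3.23 log2 units above the highest WT array. The difference in means was 4.26 on the log2 scale (SE 0.19), which is 19.2-fold. Raw spot signals give the same picture: they were 1.76 to 2.53 times the local background in WT of the total line and 29.3 to 71.1 times in total ChREBP KO.

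This probe was dim in WT, near background by its signal. In WT of the total line it had raw signals of 27.5 to 50, close to the 26 to 36 of the upstream probe A_55_P2087391. The fold difference thus rests on WT signals near background. A_52_P326664 was called well above background on 26 of 26 arrays, including all 7 WT arrays of each line. The scanner software found the spot on 4 of 7 WT arrays of the total line, 5 of 7 WT arrays of the ChREBPβ line, 3 of 5 ChREBPβ KO arrays and 7 of 7 total ChREBP KO arrays.

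The upstream Unc93a probe, dim in every group, showed no such rise. A_55_P2087391 read 4.78, 5.03 and 5.25 (lowest, median, highest) in WT of the total line and 4.80, 5.01 and 5.06 in total ChREBP KO, so the KO arrays lay inside the WT range. Its difference was -0.02 (SE 0.08), with a 95% interval of -0.19 to 0.15. It was called well above background on 26 of 26 arrays, with a spot signal of 1.39 to 2.20 times the local background. The spot was found on 2 of 7 WT and 6 of 7 KO arrays of this line. Whether this probe can register a change at so low a signal was not tested.

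**Figure D1:**
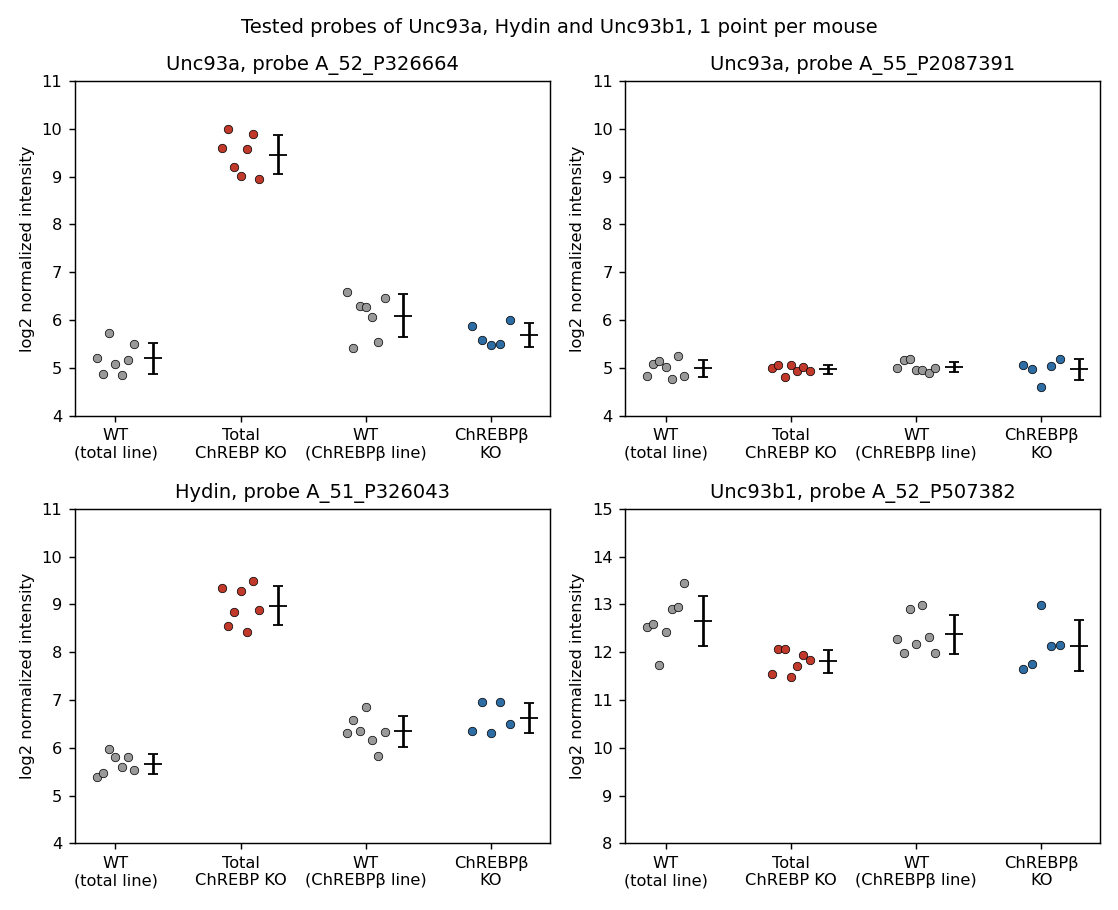
Log2 normalized intensity of the 4 tested probes in each of the 4 groups, 1 point per mouse (n = 7, 7, 7 and 5), with the mean and SD as a bar beside the points. Total ChREBP KO arrays stand alone for Unc93a A_52_P326664 (8.95 to 9.997) and Hydin A_51_P326043 (8.41 to 9.49), while Unc93a A_55_P2087391 is level across groups; the Unc93b1 panel has another range on its y axis of the same span.

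Hydin was also brighter in total ChREBP KO at its 3′ probe. A_51_P326043 read 5.40, 5.60 and 5.98 in WT of the total line and 8.41, 8.89 and 9.49 in total ChREBP KO. The groups did not overlap, and the gap between them was 2.44 log2 units. The difference in means was 3.32 (SE 0.16), or 9.96-fold. The spot was called well above background on 26 of 26 arrays, at 2.37 to 3.20 times the local background in WT of the total line and 17.2 to 39.0 times in total ChREBP KO. It was found on 6 of 7 WT and 7 of 7 KO arrays of this line. Of the 4 tested member probes, 2 had KO and WT arrays that did not overlap, beside 14.2% of all 38832 tested probes. Of all tested probes 45.6% were called in this comparison, and since the genes were chosen on it nothing is read from these counts.

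The other 3 Hydin probes gave no reading in any group. A_66_P101360, A_51_P444555 and A_55_P2735395 were each well above background on 0 of 26 arrays, total ChREBP KO included. Their spot signals lay between 0.80 and 1.36, 0.65 and 1.21, and 0.79 and 1.27 times the local background. A change at these probes was not detectable at this signal. The rise of Hydin thus rests on 1 probe at the 3′ end, and that of Unc93a on 1 of 2 probes.

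**Figure D2:**
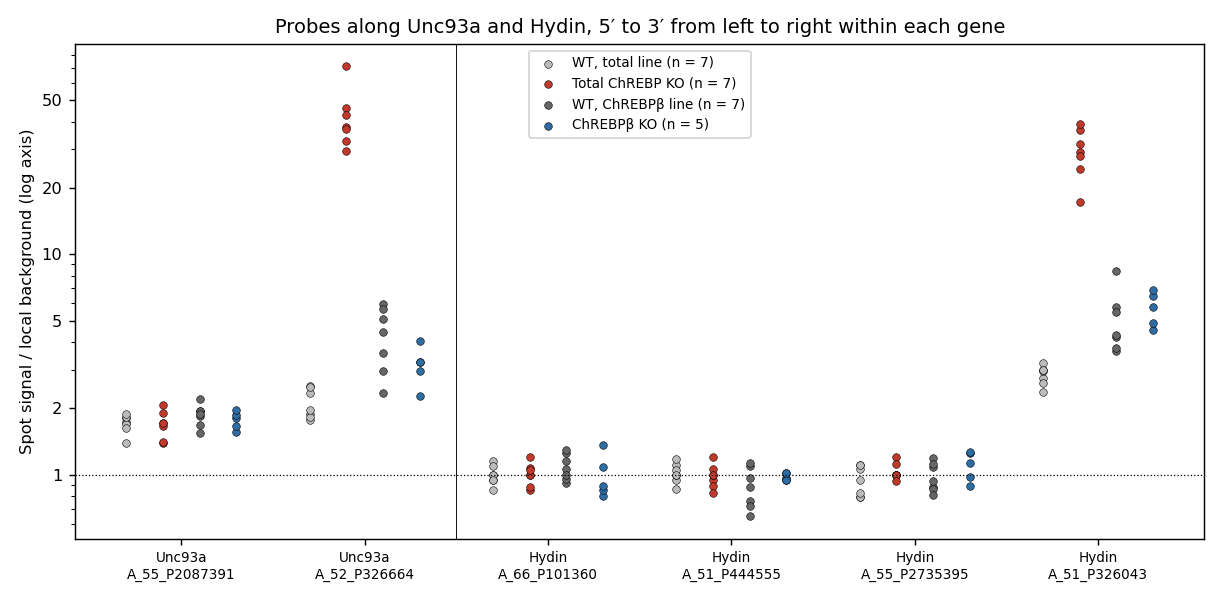
Spot signal divided by local background (log axis) for each probe of Unc93a and Hydin in the order of transcription, 1 point per array and 1 column of points per group; the dotted line marks a signal equal to background. The last probe of each gene rises in total ChREBP KO to 29.3 to 71.1 (Unc93a) and 17.2 to 39.0 (Hydin), and the first 3 Hydin probes lie around 1 in every group.

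Unc93b1, the paralog, did not rise. Its probe read 11.7, 12.6 and 13.5 in WT of the total line and 11.5, 11.8 and 12.1 in total ChREBP KO. The ranges overlapped, and all KO arrays lay below the WT median. The difference was -0.84 (SE 0.22), 55.7% of the WT level. It was 0.07 within wash batch 1, which held 1 WT array, and between -1.38 and -0.48 within the other 3 batches. Of 10 macrophage markers 4 were called lower, 0 higher and 6 did not pass in total ChREBP KO, and of 15 lymphocyte markers all 15 were called lower, beside 19.7% of all tested genes. The mean log2 intensity of the macrophage markers was 11.5 to 12.9 in WT of the total line and 11.3 to 11.8 in total ChREBP KO. All markers of both lists were well above background on 26 arrays. With lymphocyte and muscle marker scores in the model, the Unc93b1 difference was -0.54. The part of these markers in it was not tested further.

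When only ChREBPβ was missing, Hydin did not change detectably. Unc93a is described without a test there, because both of its probes passed the filter through total ChREBP KO alone. Unc93a A_52_P326664 in the 5 ChREBPβ KO arrays was 5.47, 5.50, 5.57, 5.89 and 6.01, and in WT of that line it was 5.41, 6.27 and 6.59 at the lowest, median and highest. Every KO array fell within the WT range. The difference was -0.40 (SE 0.21, 95% interval -0.83 to 0.03), with the spot found on 3 of 5 KO and 5 of 7 WT arrays.

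Hydin A_51_P326043 in ChREBPβ KO was 6.32, 6.36, 6.50, 6.95 and 6.96, against 5.82, 6.33 and 6.86 in WT of the line. The ranges overlapped, and 2 KO arrays lay above the highest WT array. The difference was 0.27 (SE 0.18, 95% interval -0.10 to 0.64, limma adjusted p = 0.788). An exact two-sided permutation test of the arrays of this line gave p = 0.157, where 0.00126 was the smallest p possible. The Hydin spot was found on 2 of 5 KO and 5 of 7 WT arrays. Unc93b1 read 11.6, 11.7, 12.1, 12.2 and 13.0 in ChREBPβ KO and 11.98, 12.3 and 13.0 in WT, a difference of -0.24 (SE 0.24, 95% interval -0.74 to 0.26, limma adjusted p = 0.90; exact permutation p = 0.39). The upstream Unc93a probe differed by -0.05 (SE 0.09). Neither the Hydin nor the Unc93b1 probe was called in this comparison, in which 0.0361% of all tested probes were. Within the 3 wash batches that held both groups, the Unc93a difference ran from -0.87 to 0.20 and the Hydin difference from -0.21 to 0.68, so neither kept 1 sign.

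Levels in the WT mice of the 2 lines are given as a description, because low values in WT took part in choosing Unc93a and Hydin and because the WT arrays of the total line are also the controls of total ChREBP KO. Unc93a A_52_P326664 was on average 0.89 higher in WT of the ChREBPβ line than in WT of the total line (SE 0.19), and Hydin A_51_P326043 was 0.69 higher (SE 0.16). The ranges overlapped for both genes. The upstream Unc93a probe differed by 0.03 and Unc93b1 by -0.28 (SE 0.22). Of all tested probes, 25.8% were called higher in WT of the ChREBPβ line. With lymphocyte and muscle marker scores in the model, the Unc93a difference was 0.63 and the Hydin difference turned to -0.25. Line and tissue composition cannot be told apart here.

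In order of mean level, Unc93a A_52_P326664 thus ran from WT of the total line (5.20 ± 0.32, SD, n = 7) through ChREBPβ KO (5.69 ± 0.24, n = 5) and WT of the ChREBPβ line (6.09 ± 0.45, n = 7) to total ChREBP KO (9.46 ± 0.41, n = 7). Hydin A_51_P326043 ran from WT of the total line (5.66 ± 0.21) through WT of the ChREBPβ line (6.34 ± 0.32) and ChREBPβ KO (6.62 ± 0.31) to total ChREBP KO (8.97 ± 0.41). For both genes the first 3 groups overlapped their neighbours in this order, and only total ChREBP KO stood clear. Adipocyte marker scores were 15.04 to 15.6 in WT and 15.7 to 16.0 in KO mice of the total line. They were 15.6 to 15.9 in WT and 15.5 to 16.0 in KO mice of the ChREBPβ line. The part of adipocyte, lymphocyte and muscle content in these levels was not tested beyond the model with marker scores.

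**Figure D3:**
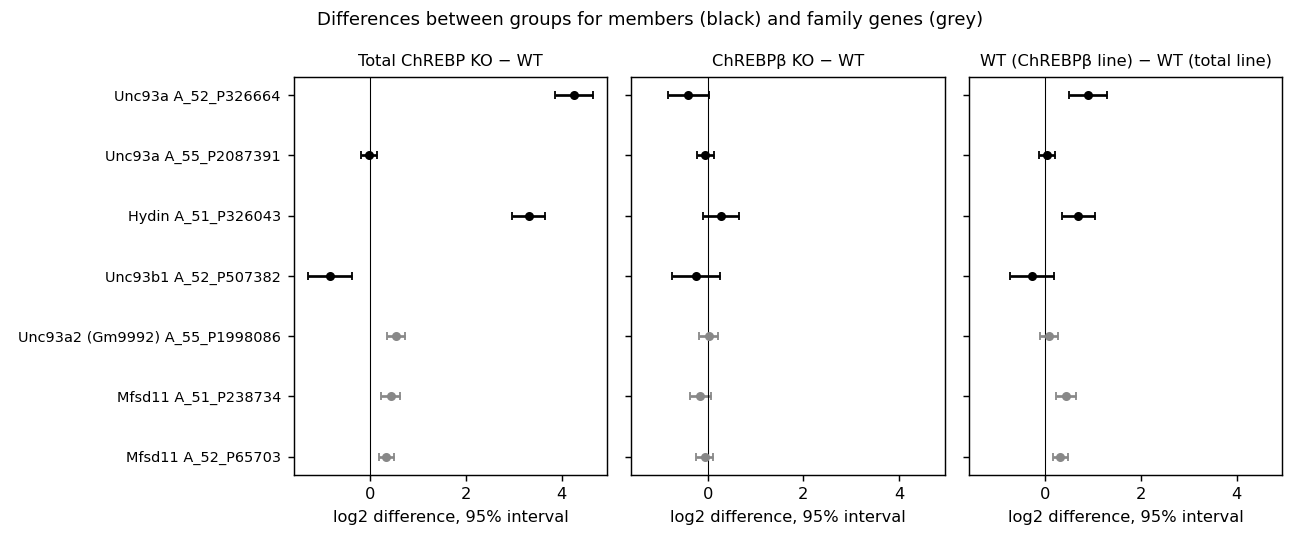
Log2 differences with 95% intervals for the 4 tested member probes (black) and 3 probes of UNC93-like family genes (grey) in 3 comparisons. Only Unc93a A_52_P326664 (4.26) and Hydin A_51_P326043 (3.32) lie beyond 1 log2 unit, and only in total ChREBP KO; the left and right panels share the WT arrays of the total line.

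The size of the rise depended on how the background was treated, and its direction did not. Agilent's processed signal, which is background-subtracted, gave 5.18 for Unc93a and 3.87 for Hydin. Normexp correction with an offset of 50, which lifts dim spots, gave 3.28 and 2.60. With marker scores as covariates the values were 4.07 and 2.88. Within the 4 wash batches the differences ran from 3.68 to 4.95 for Unc93a and from 3.12 to 3.37 for Hydin, higher in 4 of 4 batches for each. As KO and WT arrays did not overlap, the sign within batches was fixed in advance.

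**Figure D4:**
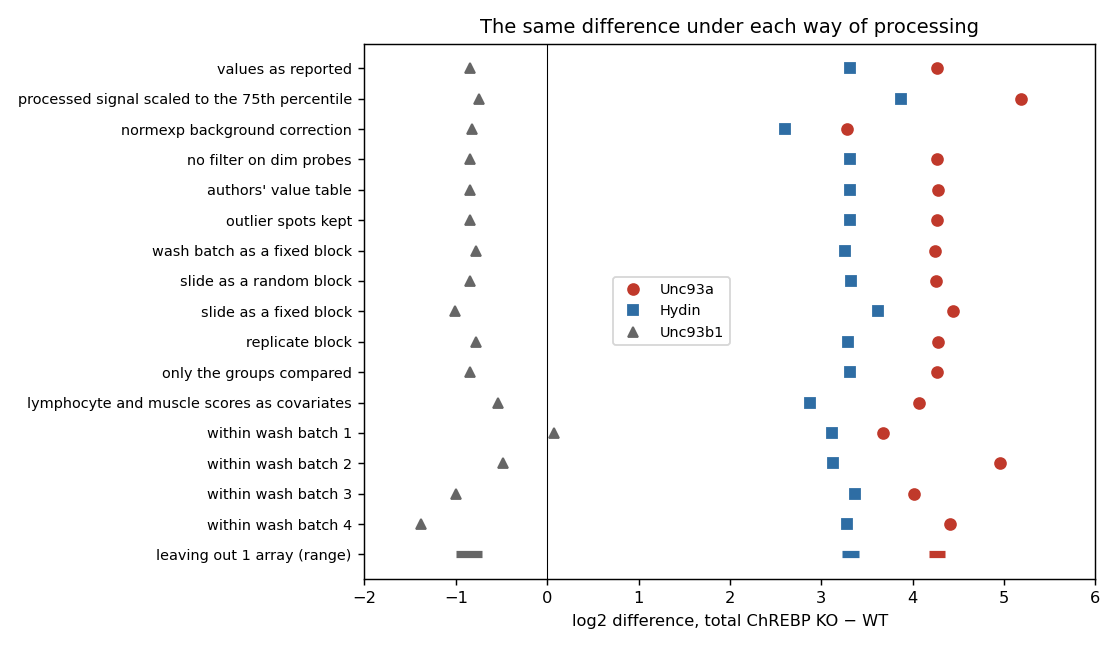
Log2 difference between total ChREBP KO and WT for Unc93a A_52_P326664 (red circles), Hydin A_51_P326043 (blue squares) and Unc93b1 (grey triangles) under each way of processing, within each wash batch, and as a range over leaving out 1 array. Unc93a stays between 3.28 and 5.18 and Hydin between 2.60 and 3.87, while Unc93b1 reaches 0.07 within wash batch 1.

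Unc93a has a close relative on the same chromosome, Unc93a2, which the array lists under its older name Gm9992. In RefSeq on GRCm38.p6, promoter windows of 250 bases before to 50 bases after the start were given for Unc93a, Hydin and Unc93a2. The Unc93a window from base 91 before the start onward matched the Unc93a2 window from base 250 before its start at 140 of 141 aligned bases (99.3%). The stretch is shown because it places the copy of the Unc93a start region inside the upstream window of Unc93a2. The capital marks the single base that differs, over the 91 bases before the Unc93a start (chr17:13131792-13131882, minus strand) and their copy (chr17:7385465-7385555, minus strand).
Unc93a: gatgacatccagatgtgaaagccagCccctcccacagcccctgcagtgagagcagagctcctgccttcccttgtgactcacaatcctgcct
Unc93a2: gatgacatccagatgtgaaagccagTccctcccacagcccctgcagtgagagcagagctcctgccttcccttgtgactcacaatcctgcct

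The values of Unc93a2 are a description, since its probe, like those of Unc93a, passed the filter through the total ChREBP KO arrays alone. Probe A_55_P1998086 (chr17:7580787-7580846 in mm9) read 4.30, 4.49 and 4.77 in WT of the total line and 4.89, 5.01 and 5.34 in total ChREBP KO. The groups did not overlap, by 0.12 log2 units, and the probe was well above background on 1 of 7 WT and 7 of 7 KO arrays of this line, 1 of 7 WT arrays of the ChREBPβ line and 2 of 5 ChREBPβ KO arrays. The difference was 0.54 (SE 0.09) in total ChREBP KO and 0.02 (SE 0.10) in ChREBPβ KO, with the WT side mostly near background. A second probe, A_55_P2056344, was bright on all 26 arrays but failed the filter because its spot was found on 15 of them. In a fit without the filter its difference between total ChREBP KO and WT was 0.31 (SE 0.17, limma adjusted p = 0.19). Whether RNA of one copy binds probes of the other was not tested.

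Mfsd11, a more distant UNC93-like gene, was called higher at both of its probes in total ChREBP KO, by 0.43 (SE 0.10, limma adjusted p = 0.00079) and 0.34 (SE 0.08, adjusted p = 0.000793). It differed by -0.16 and -0.06 in ChREBPβ KO (adjusted p = 0.796 and 0.942), and by 0.43 and 0.31 between WT of the ChREBPβ line and WT of the total line (adjusted p = 0.000752 and 0.00164). Of all tested probes, 26.3% were called higher in total ChREBP KO and 19.3% lower.

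The E-box letters CACGTG, searched on both strands, occurred in 7.15% of the 32851 RefSeq promoter windows and in none of the windows of Unc93a, Unc93a2 and Hydin. An exact pair, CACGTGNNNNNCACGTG, occurred in 0 of the 32851 windows, so this search could not set apart the windows of any gene. Inexact pairs and sites outside the windows were not searched. The Hydin window held the inverted repeat GTTGCNNNNGCAAC, a form of the site bound by RFX factors, which act on many ciliary genes. This motif was looked for after the window had been read, and 0.174% of all windows held it. The last 60 bases before the Hydin start (GRCm38.p6 chr8:110266917-110266976, plus strand) are shown with the repeat in capitals.
Hydin: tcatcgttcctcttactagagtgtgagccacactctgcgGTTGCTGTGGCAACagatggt

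Other genes of motile cilia were called in both directions. Of 38 genes in a list of ciliary regulators and axoneme parts, 36 were on the array and 22 were tested. In total ChREBP KO 4 of these were called higher, 3 lower and 15 did not pass, where 26.2% of all tested genes were called higher and 19.7% lower. The median difference of the list was 0.02, beside 0.05 over all tested genes. Rsph9, a radial spoke protein, rose by 0.57 (SE 0.13, limma adjusted p = 0.000874) and Tekt2, a tektin of the microtubule doublets, by 0.56 (SE 0.12, adjusted p = 0.000501). Tekt1, another tektin, fell by 1.06 (SE 0.34, adjusted p = 0.0121) and Hyls1, a centriole protein, fell by 1.04 (SE 0.16, adjusted p = 1.16e-05). Of the 36 genes on the array, 18 had a probe well above background on all 26 arrays, 9 on some and 9 on 0 or 1 array. Among the regulators, named after their values were seen, Mcidas and Ccno were in the first of these sets and Foxj1, which drives motile ciliation, was in the last. In ChREBPβ KO 0 of the 22 were called. With marker scores in the model, 1 gene was called higher and 1 lower in total ChREBP KO. Between WT of the ChREBPβ line and WT of the total line, 5 of the 22 were called higher and 3 lower. Rsph9, Tekt2, Tekt1 and Hyls1 differed there by 0.57, 0.43, -0.73 and -0.82 (limma adjusted p = 0.000823, 0.00468, 0.0782 and 0.000155). The part of this difference between lines in the KO values was not tested.

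Receptors that UNC93B1 escorts, with their chaperones and signalling partners, were tested at 25 genes. Of these 9 were called lower, 3 higher and 13 did not pass in total ChREBP KO, where 19.7% of all tested genes were called lower and 26.2% higher, with a list median difference of -0.17, beside 0.05 over all tested genes. Tlr12, a receptor for microbial profilin, fell by 1.79 (SE 0.43, limma adjusted p = 0.00158). Ctss, a lysosomal protease that trims endosomal receptors, fell by 1.70 (SE 0.42, adjusted p = 0.00191), Syk, a kinase of immune receptors, fell by 1.35 (SE 0.31, adjusted p = 0.000887), and Irf5, a transcription factor downstream of the receptors, fell by 1.07 (SE 0.29, adjusted p = 0.00428). Among the nucleic acid sensors of the list, named after their values were seen, Tlr7 fell by 0.67 (adjusted p = 0.0219), while Tlr13, Tlr3, Tlr8 and Tlr9 differed by -0.83, -0.14, 0.09 and 0.03 (adjusted p = 0.05, 0.304, 0.80 and 0.793) and did not pass. With lymphocyte and muscle scores in the model, 1 gene of the list was called lower and 0 higher. In ChREBPβ KO 0 were called. Between WT of the ChREBPβ line and WT of the total line, 6 genes of the list were called higher and 7 lower. Tlr12, Ctss, Syk and Irf5 differed there by -2.945, -0.998, -1.17 and -0.49 (limma adjusted p = 5.55e-06, 0.0565, 0.00313 and 0.184). The part of this difference between lines in the falls was not tested.

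Neighbours on the chromosome were examined within 500 kb of the member probes, and their counts are to be read beside the 26.2% of all tested genes called higher and 19.7% called lower. Around Unc93a, 21 genes were tested, of which 2 were called higher and 2 lower in total ChREBP KO, and their differences lay between -0.55 and 0.75. The nearest tested gene on one side, Tcp10b at 26.9 kb, differed by 0.75 (SE 0.42, limma adjusted p = 0.146), and Gpr31b, 222 kb away on the other side, by 0.04 (adjusted p = 0.719). The rise of 4.26 at Unc93a was thus not shared by any tested neighbour.

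Around Hydin 9 of 21 tested genes were called higher and 2 lower, with a median of 0.18. The nearest on the downstream side, Vac14 at 110 kb, a scaffold of the kinase complex that makes phosphatidylinositol 3,5-bisphosphate, rose by 0.97 (SE 0.07, adjusted p = 1.66e-10). Cmtr2, 131 kb upstream, differed by -0.05 (adjusted p = 0.662). Around Unc93b1 11 of 45 were called higher and 12 lower. Aldh3b3 and Aldh3b2, fatty aldehyde dehydrogenases 20.7 and 32.4 kb downstream, rose by 1.39 (SE 0.14) and 1.74 (SE 0.17), while Aldh3b1, 35.5 kb upstream, differed by -0.30 (adjusted p = 0.211). Further off, BC021614, Cabp4, Ptprcap, Tbc1d10c and Clcf1 fell, with differences of -1.93, -1.06, -2.18, -1.87 and -1.31, and 9430078G10Rik rose by 1.04. Ptprcap and Tbc1d10c are lymphocyte genes.

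**Figure D5:**
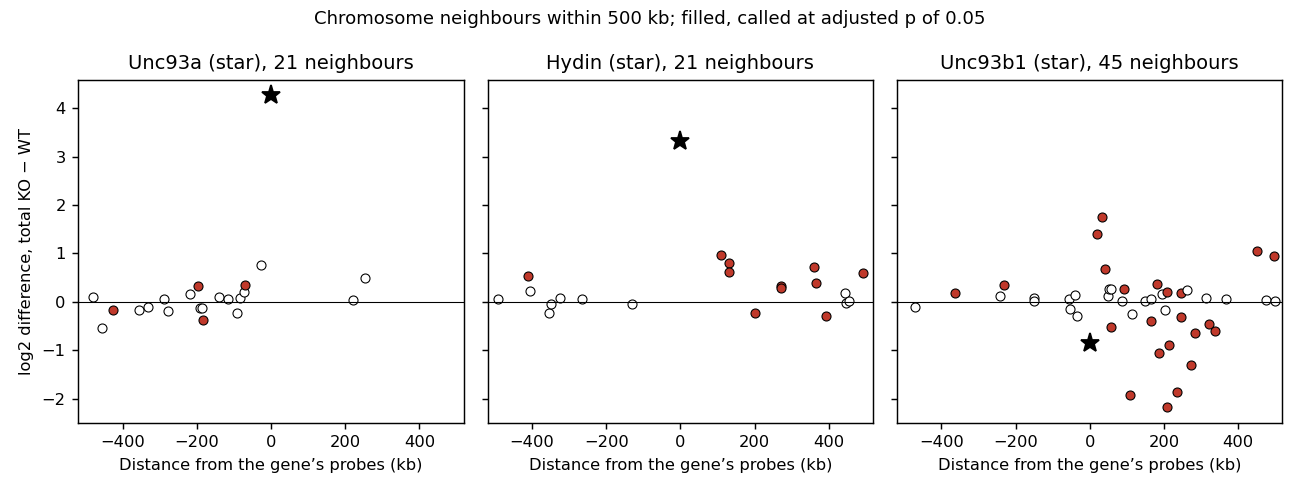
Log2 difference between total ChREBP KO and WT for tested genes within 500 kb of Unc93a, Hydin and Unc93b1 (stars, at 0 kb) against distance from the probes of the gene; filled circles were called at an adjusted p of 0.05. No neighbour of Unc93a or Hydin reaches 1 log2 unit, and Vac14 (0.97) is the highest beside Hydin.

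Over all 26 arrays, Pearson's r between Unc93a A_52_P326664 and Hydin A_51_P326043 was 0.945. It was -0.549 between Unc93a and Unc93b1 and -0.639 between Hydin and Unc93b1. All points share the step between total ChREBP KO and the other groups, so these values describe that step. Within the 7 total ChREBP KO arrays the levels did not track each other detectably: r was -0.08 for Unc93a and Hydin (rho 0.04, exact permutation p = 0.868 and 0.963), 0.37 for Unc93a and Unc93b1 (rho 0.32, exact p = 0.392 and 0.498) and -0.39 for Hydin and Unc93b1 (rho -0.29, exact p = 0.366 and 0.556). Adjusted over these 3 relations, the exact permutation p-values for r were 0.868, 0.588 and 0.588, and those for rho 0.963, 0.834 and 0.834. Without the 2 arrays farthest from the median, r was 0.09, 0.09 and 0.18.

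The genes most like Unc93a over the 26 arrays were Foxo6, a forkhead transcription factor (r = 0.974), Gm9895 (0.967), Bcat2, the mitochondrial branched-chain aminotransferase (0.966), Hsd17b14, a hydroxysteroid dehydrogenase (0.964), and Ttll2, a tubulin tyrosine ligase-like gene (0.964). Among the most opposite were Deptor, an inhibitor of mTOR (-0.981), and Bmyc (-0.948). In total ChREBP KO the rise of Foxo6 was 4.30, close to the 4.26 of Unc93a, and differed by -0.0028 in ChREBPβ KO.

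For Hydin the most alike were its neighbour Vac14 (r = 0.967), D630024D03Rik (0.967), Cd320, the transcobalamin receptor (0.960), Hacl1, a peroxisomal lyase of fatty acid α-oxidation (0.959), and Nr1h3, the oxysterol receptor LXRα (0.958). The most opposite were Slc2a5, the fructose transporter (-0.953), Pdk1, a pyruvate dehydrogenase kinase (-0.953), and Gpd2, the mitochondrial glycerol 3-phosphate dehydrogenase (-0.952). Chosen after the values had been seen, genes among the most like Unc93b1 were Nrros (0.977), Ly86 (0.968), Irf5 (0.968) and Snx5 (0.964). These are descriptions over 26 points that share the same group steps.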

How the data were processed

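RNA was hybridised to 1-colour Agilent mouse arrays (Quick Amp labelling, which starts from the poly(A) tail), 1 array per mouse, 26 in all. The deposited scanner files hold spot intensities from Feature Extraction 10.10.1.1. The authors filtered spots, took log2 values, normalized by quantiles and took the median of replicate spots, and their deposited table of log2 values was used as an alternative. Here a probe's median spot intensities were kept (38832 probes) if at least 21 of 26 arrays, or at least 75% of a group, had the spot found, positive, significant and well above background. This scales the filter of the methods to these arrays. Outlier spots were removed (1747 values), and values were taken to log2, quantile normalized and summarised by probe median. A limma 3.58.1 model (R 4.3.3) with 4 group means was fitted, adjusted by Benjamini-Hochberg and called at 0.05. The script was tested on simulated data.

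The number of arrays limits the precision, and p-values measure the spread between mice. Gene lists (motile cilium, UNC93B1 clients, UNC93-like family, and markers of lymphocytes, macrophages, dendritic cells, muscle, adipocytes and epithelium), members and comparisons were chosen with earlier results of these data known. Named genes were, per list, the 4 called genes with the largest difference, the nearest neighbours and those changed by at least 1, and the genes with the 5 highest and 3 lowest correlations, some of which are not reported here. A gene was read from its brightest probe. Alternatives were the authors' table, the processed signal scaled to the 75th percentile, normexp (offset 50), no filter, slide and replicate blocks, marker scores as covariates, only the groups compared, single wash batches, and leaving out each array. The 15 slides, 4 wash batches and 2 scan days came from the files.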

Additional observations from a re-analysis of the deposited data

Results flagged for a closer look

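The change of Mfsd11 in ChREBPβ KO differed from that in total ChREBP KO by a test of the difference itself. The ChREBPβ effect minus the total effect was -0.59 (SE 0.14, limma adjusted p = 0.00512) for probe A_51_P238734 and -0.40 (SE 0.11, adjusted p = 0.0134) for probe A_52_P65703. At A_51_P238734, total ChREBP KO and WT of the ChREBPβ line both averaged 8.93, against 8.50 in WT of the total line. The difference between the WT groups thus enters this test, and its part was not tested. The same test was not made for Unc93a, Hydin and Unc93b1, which were chosen with or on the total ChREBP KO contrast, nor is it given for Unc93a2, whose probe passed the filter through total ChREBP KO alone. Among 16 groups of 4 or more arrays over the 4 tested member probes, 0 held an array far from the rest by Dixon's criterion.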

How the results depend on the processing

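In total ChREBP KO, Unc93a A_52_P326664 and Hydin A_51_P326043 stayed higher in all 29 alternatives each. Their differences were 5.18 and 3.87 with the processed signal, 3.28 and 2.60 with normexp, and 4.07 and 2.88 with marker covariates, and leaving out 1 array gave 4.18 to 4.35 and 3.23 to 3.41 (Unc93b1, -0.996 to -0.711). KO and WT arrays did not overlap for Unc93a and Hydin, so leaving out 1 array or taking single wash batches could not turn their sign. In ChREBPβ KO neither Hydin nor Unc93b1 was called in any alternative (lowest limma adjusted p 0.466). Leaving out 1 array there gave -0.51 to -0.32 for Unc93a, 0.18 to 0.36 for Hydin, -0.45 to -0.12 for Unc93b1 and -0.099 to 0.0442 for A_55_P2087391, which turned without ChREBPβ KO replicate 4. Signs also turned for Hydin (-0.0062) and A_55_P2087391 (0.0765) with slide as a fixed block. Within single wash batches they turned for Unc93a (0.20), Unc93b1 (0.25), Hydin (-0.21) and A_55_P2087391 (0.0611, 0.0025 and 0.0586). Single wash batches also gave 3.68 and 4.95 for Unc93a, 0.0739 and -1.38 for Unc93b1 and -0.246 for A_55_P2087391 in total ChREBP KO, and -0.867 for Unc93a and 0.683 for Hydin in ChREBPβ KO. Between WT groups, marker covariates gave 0.63 for Unc93a, -0.25 for Hydin, 0.42 for Unc93b1 and -0.15 for A_55_P2087391, which was also -0.0544 with the processed signal and -0.0378 with slide as a fixed block. Leaving out 1 array gave 0.81 to 1.01, 0.60 to 0.78, -0.43 to -0.15 and -0.0045 to 0.0751 in that order. The cause was not tested.

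Called probes in total ChREBP KO numbered 17691, but 5355 with marker covariates and 8386 when slide was a fixed block (16020 to 18641 leaving out 1 array). Between WT groups 17552 fell to 1205 with covariates. In ChREBPβ KO the 14 (3072 at an unadjusted p under 0.05 in limma) became 9 with the processed signal, 26 with covariates, 2 with only the groups compared and 0 when slide was a fixed block. They ranged from 2 (without ChREBPβ KO replicate 6) to 110 (without replicate 4).

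Same-numbered arrays did not pair: 4 of 10 pairs had a correlation of deviations above 0.1 (range -0.36 to 0.51), and in 2 the number was the best match. With the replicate block, Unc93a, Hydin and Unc93b1 differed by 4.27, 3.29 and -0.77 in total ChREBP KO, by -0.42, 0.25 and -0.11 in ChREBPβ KO and by 0.90, 0.68 and -0.27 between WT groups. Called probes numbered 15975, 6 and 16507, and Hydin and Unc93b1 were still not called in ChREBPβ KO. The 3 Hydin probes at background set no limit on RNA level there.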
